A study of Mus musculus with 20 samples.

Results

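The 36 genes described here are the fatty acid oxidation genes and targets of the nuclear receptor PPAR alpha that were listed for mouse liver. A gene was included when the platform annotation gave a probe set to its symbol alone, and of several such probe sets the one brightest on average over the 20 arrays was used. By this rule 34 of the 36 were measured, of 18193 genes in all. Acsl1 was not analysed here, and the only probe set carrying Cyp4a10 also carries Cyp4a31 and was not used. The 34 comprise 17 mitochondrial genes, 10 peroxisomal genes, 1 microsomal gene, 2 cytosolic genes of acyl-CoA and fatty acid handling, and 4 genes for secreted, surface or regulatory proteins. All 34 lay above the 25th percentile of the array on 20 of 20 arrays, so none was lost to the filter on dim genes.

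The livers came from male CD1 mice, an outbred stock, with no genetic change named and no age given. Phenobarbital sodium (PB) was given by mouth each day at 80 mg/kg/day for 28 or 90 days, and the vehicle 0.5% methylcellulose 15 (CMC) was given to the controls. Each of the 4 groups (CMC 28d, PB 28d, CMC 90d, PB 90d) held 5 mice with 1 array each, and the RNA was from the left lateral lobe, taken 1 day after dosing ended. The values are log2 signal intensities, so a difference of 1 is a doubling of signal, and differences near background or saturation are compressed.

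Fatty acid oxidation shortens acyl-CoA by repeated rounds of dehydrogenation, hydration, dehydrogenation and thiolysis. Mitochondria take up long-chain fatty acids as carnitine esters, peroxisomes begin the oxidation of very long and branched chains, and microsomal Cyp4a enzymes hydroxylate the far end of the chain. PPAR alpha, which fatty acids and fibrate drugs activate, binds DNA with RXR at repeats of the hexamer AGGTCA and drives many of these genes in the fasting liver. Phenobarbital is the classical activator of another receptor, the constitutive androstane receptor.

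Before the values, the start of 3 member genes is shown because the data bear on them. Fabp1 varied least among the livers and carries more than 1 AGGTCA hexamer, Acadvl separated the groups at 90 days and carries 1, and Hadhb shares its start region with Hadha. The windows are the 250 bases before the annotated start, from RefSeq on GRCm38.p6, written 5′ to 3′ on the gene's strand, with AGGTCA or its reverse complement TGACCT in capitals. They lie at chr6:71199629-71199878 (plus strand) for Fabp1, chr11:70015429-70015678 (minus strand) for Acadvl and chr5:30155003-30155252 (plus strand) for Hadhb.
Fabp1: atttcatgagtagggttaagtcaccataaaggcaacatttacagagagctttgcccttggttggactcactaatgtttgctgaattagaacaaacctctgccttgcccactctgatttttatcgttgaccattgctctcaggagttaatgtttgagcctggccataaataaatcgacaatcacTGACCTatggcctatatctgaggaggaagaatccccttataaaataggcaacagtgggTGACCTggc
Acadvl: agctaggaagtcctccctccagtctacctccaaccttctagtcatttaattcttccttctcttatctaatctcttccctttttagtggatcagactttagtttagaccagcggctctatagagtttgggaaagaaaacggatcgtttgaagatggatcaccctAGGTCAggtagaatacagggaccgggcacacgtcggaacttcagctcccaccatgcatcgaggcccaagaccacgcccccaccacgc
Hadhb: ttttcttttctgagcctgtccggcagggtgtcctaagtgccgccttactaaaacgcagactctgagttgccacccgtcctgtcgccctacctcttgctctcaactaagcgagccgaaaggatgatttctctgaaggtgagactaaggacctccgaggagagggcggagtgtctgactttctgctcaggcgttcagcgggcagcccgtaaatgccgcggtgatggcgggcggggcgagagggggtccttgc
The hexamers of Fabp1 end 62 and 4 bases before its start and that of Acadvl ends 82 bases before it. The Hadhb window holds 0 of them, and 272 bases separate the start sites of Hadha and Hadhb, which point away from each other. Of the 27 members with a window, 6 (22.2%) held AGGTCA on either strand: Acadm, Acadvl, Acot4, Cpt1a, Creb3l3 and Fabp1. The share over all 27025 genes with a window was 15.8%. Fabp1 alone among the members held more than 1, as did 1.52% of all genes. The direct repeat AGGTCANAGGTCA, searched on both strands, was in 0 member windows and in 11 windows of all genes (0.0407%). These matches describe letters in a window and not bound sites.

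The label check was clear. Cyp2b10, a cytochrome P450 that phenobarbital induces, had a mean log2 intensity of 6.03 ± 1.34 in CMC and 10.93 ± 1.12 in PB at 28 days, and of 5.82 ± 1.11 and 11.70 ± 0.67 at 90 days (SD, n = 5 mice). Hepatocyte markers were bright in every liver (7 of 8 measured, all above the 25th percentile on all arrays). On the first principal component of the genes outside the set, which held 55.7% of their variance, PB 28d mouse 5 scored -107.8 and PB 90d mouse 3 scored -65.2, apart from the other 18 arrays, whose scores ranged from -39.8 to 44.2. These are also the livers with the lowest mean hepatocyte marker level, at 12.94 and 13.47, against 13.67 to 14.26 elsewhere. This pair was picked after the data were seen. On the component score, the rule for stray arrays used in the closing section flagged PB 28d mouse 5 and not PB 90d mouse 3. The splits and the members that moved most with these arrays are given with and without them. The mean of 5 neutrophil markers was 6.08 to 7.00 in PB against 5.25 to 5.71 in CMC at 28 days, and 5.14 to 6.82 against 4.72 to 5.26 at 90 days. Its part in the results below was not tested.

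No member was called in any comparison at an adjusted p under 0.05, from a limma model adjusted over 16054 genes. The counts were 0 of 34 for PB against CMC at 28 days (8 genes or 0.0498% of all genes tested were called), 0 at 90 days (0.143%), 0 for the mean of both PB effects (0.212%), 0 for the difference between the PB effects (0%) and 0 for CMC at 90 against 28 days (0%). At an unadjusted p under 0.05 in the same model, 1 member was higher at 28 days (background 1.83%) and 0 were lower (1.03%). That member is Angptl4, and the count was 0 without any single one of CMC 28d mice 2, 3 and 5, PB 28d mice 2, 3 and 4, CMC 90d mice 1 and 5 or any PB 90d mouse. At 90 days 0 were higher (3.15%) and 4 were lower (1.38%), namely Acot4, Cpt2, Hsd17b4 and Etfdh. Leaving out 1 array, that count ranged from 2 without CMC 90d mouse 4 to 10 without PB 28d mouse 5, with 7 without CMC 90d mouse 2 or PB 28d mouse 4. Arrays outside the comparison act through the pooled spread. The count was 11 with array weights, 8 with cyclic loess, 3 with a replicate block and 2 with each array centred on its 75th percentile. It was 9 without the 2 arrays that stand apart (background 1.75%) and 5 with the first component as a covariate (1.99%). Counts without a background beside them have no share over all genes to be read against. For the mean of both PB effects 0 were higher (4.24%) and 2 lower (2.37%), Cpt2 and Acot4. Leaving out 1 array gave between 1 and 6 lower, with 6 without CMC 28d mouse 3 and 5 without PB 28d mouse 4, and 1 higher without CMC 28d mouse 4. With so few calls among all genes, these counts show what was not called rather than that the genes stayed level.

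The direction of the changes differed between the durations. At 28 days 16 members were higher and 18 lower in PB, with a median change of 0.00. The median of all genes was the same, and 50.4% of them were lower. At 90 days 5 were higher and 29 lower, with a median of -0.23 against 0.03 over all genes, of which 43.8% were lower. Within the set both compartments had this split at 90 days. Lower were 14 of 17 mitochondrial genes (median -0.19) and 9 of 10 peroxisomal genes (median -0.23). Another 30 oxidation enzymes outside the set, described below, were split 15 higher and 15 lower at 90 days (median 0.00). At 28 days 11 of 17 mitochondrial genes (median -0.04) and 4 of 10 peroxisomal genes (median 0.03) were lower. Without the 2 arrays that stand apart the mitochondrial split at 28 days was reversed, with 13 higher and 4 lower (median 0.09). The members were chosen with earlier results of these data known. They share a tissue and in part vary together, so these counts are a description. Centring each array on its 75th percentile raised the all-gene median at 90 days to 0.13. The split was then 10 higher and 24 lower at 90 days (29.3% of all genes lower). At 28 days it was 22 higher and 12 lower (39.4%). Without the 2 arrays that stand apart the split was 3 higher and 31 lower at 90 days (48.5% of all genes lower). It was 23 higher and 11 lower at 28 days (44.9%). Single livers turned the 28-day split, from 11 higher and 23 lower without PB 28d mouse 4 to 24 higher and 10 lower without CMC 28d mouse 2. Of all genes 48.3% and 50.7% were then lower. The 90-day split ranged from 1 higher and 33 lower without CMC 90d mouse 4 to 6 higher and 28 lower without CMC 90d mouse 2. The shares of all genes lower were 44.5% and 45.5%.

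**Figure D1:**
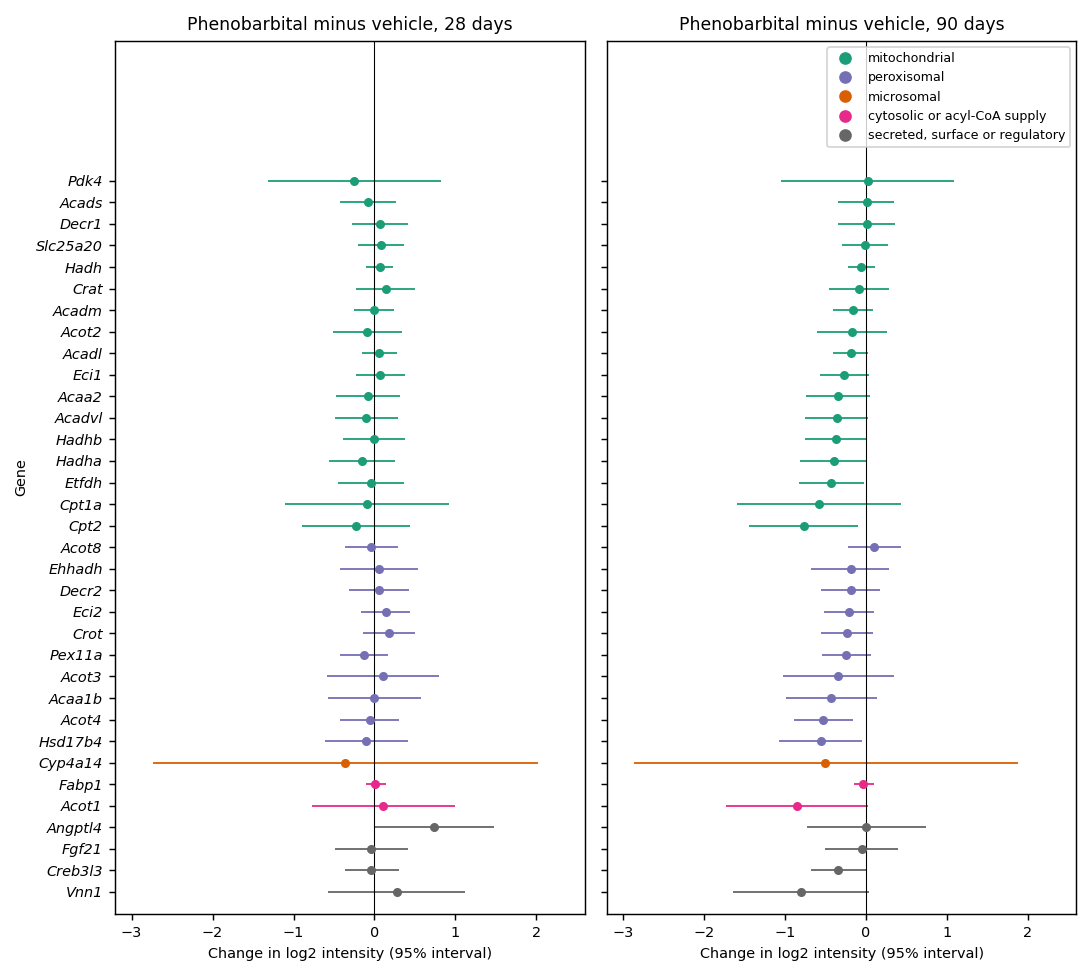
Change in log2 intensity, PB minus CMC, of the 34 measured genes at 28 days (left) and 90 days (right), with points coloured by compartment and lines for the 95% interval of the limma model. At 28 days the points lie on both sides of 0, and at 90 days 29 of 34 lie below it, while 26 of 34 intervals at 90 days stay within a change of 1 in either direction.

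The intervals bound how large a change could have been missed. At 28 days the 95% interval lay within ±1 log2 unit for 29 of 34 members and within ±0.5 for 21. At 90 days it lay within ±1 for 26 members and within ±0.5 for 10. The 5 members whose interval reached beyond ±1 at 28 days were Cpt1a, Pdk4, Cyp4a14, Angptl4 and Vnn1.

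Entry into mitochondria runs through Cpt1a, the malonyl-CoA-sensitive carnitine palmitoyltransferase of the outer membrane, the carnitine carrier Slc25a20 and Cpt2, which remakes acyl-CoA inside. Cpt2 had the largest change of any mitochondrial gene at 90 days. Its log2 intensity was 11.03, 11.00, 10.67, 11.17 and 11.08 in the CMC 90d livers and 10.67, 10.73, 9.27, 9.92 and 10.51 in the PB 90d livers. The highest PB values, 10.67 and 10.73, met the lowest of CMC, and mouse 3, one of the arrays that stand apart, was the lowest. At 28 days the CMC livers read 9.94, 11.04, 10.13, 10.23 and 10.44 and the PB livers 10.45, 10.09, 10.56, 10.70 and 8.84, and the groups overlapped across most of their range. The change was -0.77 ± 0.32 at 90 days (SE; 95% interval -1.44 to -0.10; adjusted p = 0.816) and -0.23 ± 0.32 at 28 days (adjusted p = 1). Without the 2 arrays that stand apart it was -0.53 ± 0.21 at 90 days (adjusted p = 0.999) and 0.09 ± 0.21 at 28 days.

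Cpt1a had a pooled SD within groups of 0.84, larger than any difference between the groups. At 28 days its log2 intensity was 9.29, 10.63, 9.36, 10.85 and 10.58 in CMC and 10.52, 9.95, 10.56, 11.04 and 8.19 in PB. The 90-day livers read 10.01, 10.97, 11.27, 10.57 and 10.46 in CMC and 10.34, 10.68, 8.58, 9.98 and 10.79 in PB. The lowest readings of the PB groups, 8.19 and 8.58, belong to the same 2 mice that stand apart over the other genes. Its change was -0.09 ± 0.49 at 28 days and -0.58 ± 0.49 at 90 days (95% interval -1.59 to 0.43; adjusted p = 0.816). Without those arrays the 90-day change was -0.21 ± 0.33 and that at 28 days 0.37 ± 0.33, and with the first component as a covariate they were -0.02 ± 0.17 and 0.14 ± 0.17. Its 3 probe sets gave like changes at 90 days, at -0.58, -0.51 and -0.56. The carrier Slc25a20 had group means between 11.66 and 11.81 and a change of -0.01 ± 0.14 at 90 days.

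The chain-shortening enzymes of the mitochondrial matrix and inner membrane gave 4 of the 5 members whose PB and CMC livers did not overlap at 90 days. All 5 (14.7% of the 34) were lower in PB, and 69 genes of all those tested (0.43%) had no overlap in that direction (1.07% in either direction). At 28 days 0 members separated the groups (background 0.542%). The 4 mitochondrial genes are Acadvl and Acadl, the very-long-chain and long-chain acyl-CoA dehydrogenases, Hadha, the alpha subunit of the trifunctional protein, and Acaa2, a thiolase of the last step. Within groups Acadvl, Acaa2, Hadha and the fifth, Hsd17b4, had r from 0.88 to 0.92 with the first component. They are therefore not separate observations. For Acadl r was 0.60. The members were chosen with earlier results of these data known, so the 14.7% is a description.

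The CMC 90d livers were very alike for Acadvl, at 12.23, 12.22, 12.23, 12.21 and 12.21. The PB 90d livers read 11.95, 12.01, 11.59, 11.75 and 11.99, all lower. At 28 days Acadvl read 11.68, 12.19, 11.39, 11.90 and 11.99 in CMC and 12.00, 11.77, 11.95, 12.05 and 10.89 in PB. The vehicle group was thus much wider at 28 days (SD 0.31) than at 90 days (SD 0.01), and the PB values lay inside or below its range. The limma change was -0.36 ± 0.19 at 90 days (95% interval -0.75 to 0.03; adjusted p = 0.816) and -0.10 ± 0.19 at 28 days, and without the 2 arrays that stand apart it was -0.29 ± 0.13 and 0.11 ± 0.13. The model pools the spread of the 4 groups, so the tightness of one vehicle group does not set the error.

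Acaa2 repeated that pattern. Its log2 intensity at 90 days was 13.24, 13.26, 13.23, 13.27 and 13.22 in CMC and 12.96, 13.08, 12.51, 12.82 and 13.12 in PB. At 28 days CMC read 12.74, 13.22, 12.34, 12.99 and 12.92 and PB read 13.06, 12.78, 12.97, 13.07 and 11.94. The vehicle SD was 0.02 at 90 days and 0.33 at 28 days, where the groups overlapped. The change at 90 days was -0.35 ± 0.19 (95% interval -0.74 to 0.05; adjusted p = 0.816), and -0.25 ± 0.13 without the 2 arrays that stand apart. At 28 days it was -0.08 ± 0.19 with and 0.13 ± 0.13 without them.

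For Hadha the 90-day gap was narrow. The CMC livers read 10.01, 9.97, 10.14, 9.92 and 9.91 and the PB livers 9.72, 9.60, 9.22, 9.56 and 9.85. At 28 days CMC read 9.44, 10.00, 9.21, 9.78 and 9.65 and PB read 9.66, 9.47, 9.67, 9.79 and 8.70, again with overlap. The change was -0.40 ± 0.20 at 90 days (95% interval -0.81 to 0.01; adjusted p = 0.816) and -0.15 ± 0.20 at 28 days, and -0.31 ± 0.14 and 0.04 ± 0.14 without the 2 arrays that stand apart. Hadhb, the beta subunit that carries the thiolase of the same complex, changed by -0.37 ± 0.18 at 90 days and 0.00 ± 0.18 at 28 days (-0.41 ± 0.14 and 0.19 ± 0.14 without them). Its other probe sets gave smaller changes at 90 days, at -0.13 and -0.15. The deviations of the divergent pair Hadha and Hadhb from their group means had r = 0.78 over the 20 arrays (permutation p = 0.00745; Spearman rho = 0.60, permutation p = 0.0166). That r was 0.76 without the 2 arrays that stand apart. It was 0.29 without CMC 28d mouse 3 and PB 28d mouse 5, the livers whose Hadha levels lay farthest from the median, so the relation rests on those livers. This pair was chosen after the data were seen.

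Acadl moved little in size. At 90 days the CMC livers read 11.98, 11.80, 11.94, 11.80 and 11.82 and the PB livers 11.77, 11.68, 11.54, 11.63 and 11.78, so the nearest values of the groups were 11.80 and 11.78. At 28 days CMC read 11.69, 11.83, 11.42, 11.82 and 11.63 and PB read 11.82, 11.74, 11.72, 11.84 and 11.58. The change at 90 days was -0.19 ± 0.11 (95% interval -0.41 to 0.03; adjusted p = 0.816). Its other probe set, above the 25th percentile on 1 array, gave 0.18.

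**Figure D2:**
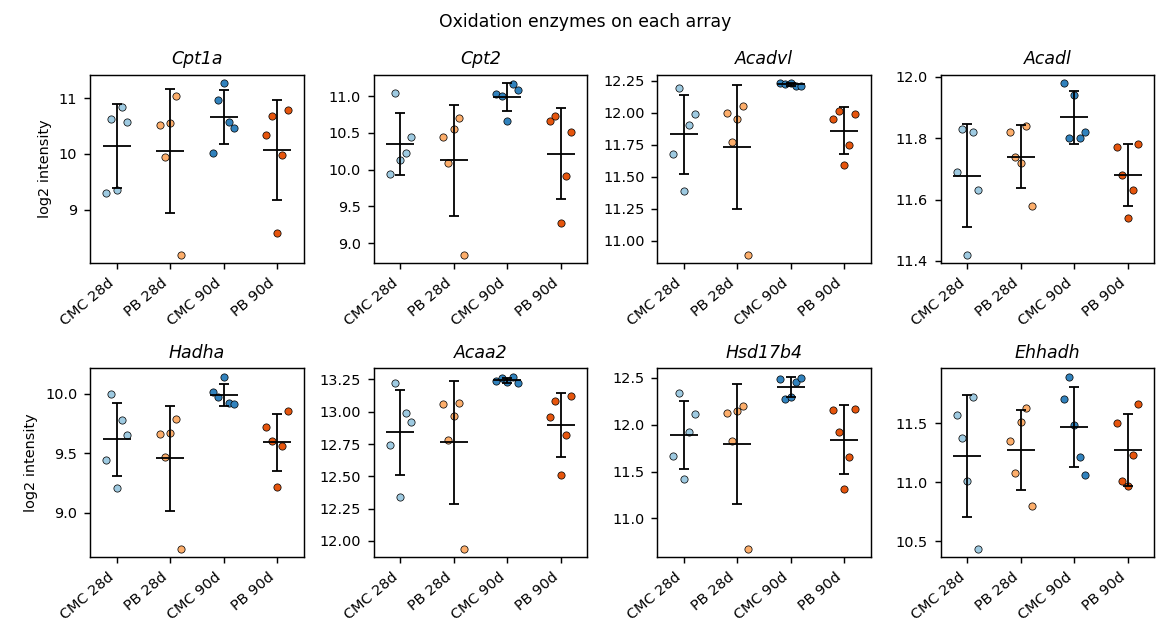
Log2 intensity of 8 oxidation enzymes on each array in the 4 groups, with points for mice, a long bar for the group mean and error bars for the SD (n = 5). Acadvl, Acadl, Hadha, Acaa2 and Hsd17b4 have no overlap between CMC 90d and PB 90d, and the lowest point of PB 28d is mouse 5 in all panels.

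The other mitochondrial members did not separate the groups. Etfdh, which passes the electrons of acyl-CoA dehydrogenation to ubiquinone, changed by -0.43 ± 0.19 at 90 days (unadjusted p = 0.0406, adjusted p = 0.816) and -0.04 ± 0.19 at 28 days (-0.34 ± 0.14 and 0.16 ± 0.14 without the 2 arrays that stand apart). The medium-chain dehydrogenase Acadm changed by -0.16 ± 0.12 at 90 days and the short-chain dehydrogenase Acads by 0.01 ± 0.16. Hadh, the short-chain hydroxyacyl-CoA dehydrogenase, was almost constant: it read 13.56, 13.56, 13.44, 13.48 and 13.42 in CMC 28d and 13.61, 13.60, 13.43, 13.68 and 13.46 in PB 28d. In CMC 90d it read 13.73, 13.62, 13.64, 13.41 and 13.50 and 13.62, 13.45, 13.48, 13.48 and 13.57 in PB 90d. Its pooled SD of 0.10 was next to the smallest of the set, and its change at 90 days was -0.06 ± 0.08. Decr1 and Eci1, which handle double bonds, changed by 0.01 ± 0.17 and -0.27 ± 0.15. The thioesterase Acot2 changed by -0.17 ± 0.21, and carnitine acetyltransferase Crat by -0.08 ± 0.17, although a dimmer Crat probe set gave -0.51.

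Pdk4, the kinase that shuts off pyruvate dehydrogenase when fat is burned, had the largest 28-day change among the mitochondrial genes and yet one well inside its spread. At 28 days it read 7.20, 6.87, 7.40, 6.49 and 6.98 in CMC and 5.95, 6.58, 7.08, 7.82 and 6.24 in PB. At 90 days it read 8.53, 8.50, 5.95, 5.60 and 6.56 in CMC and 7.15, 7.53, 5.88, 6.81 and 7.88 in PB. The CMC 90d group alone spanned the range of the other 3 groups. Its change was -0.25 ± 0.51 at 28 days (95% interval -1.32 to 0.82; adjusted p = 1) and 0.02 ± 0.51 at 90 days (-1.05 to 1.09; adjusted p = 0.992).

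Among the peroxisomal genes, Hsd17b4 was the fifth with no overlap at 90 days. It encodes the D-bifunctional protein, which hydrates and dehydrogenates branched and very long acyl-CoA. The CMC 90d livers read 12.48, 12.27, 12.29, 12.45 and 12.50 and the PB 90d livers 12.15, 11.92, 11.31, 11.65 and 12.17. At 28 days CMC read 11.67, 12.34, 11.42, 11.92 and 12.11 and PB read 12.12, 11.83, 12.14, 12.20 and 10.68, with wide overlap. The PB 90d range, 11.31 to 12.17, lay within that of the CMC 28d livers apart from mouse 3. The change was -0.56 ± 0.25 at 90 days (95% interval -1.07 to -0.05; adjusted p = 0.816) and -0.43 ± 0.16 without the 2 arrays that stand apart (adjusted p = 0.999). At 28 days it was -0.10 ± 0.25 with and 0.18 ± 0.16 without them.

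Ehhadh, the L-bifunctional enzyme and a standard marker of PPAR alpha activation in rodents, differed between the groups by less than its spread among mice. It read 11.57, 11.37, 11.01, 11.72 and 10.44 in CMC 28d and 11.35, 11.08, 11.51, 11.63 and 10.80 in PB 28d. At 90 days it read 11.70, 11.89, 11.48, 11.21 and 11.06 in CMC and 11.50, 11.01, 10.97, 11.23 and 11.66 in PB. Its change was 0.05 ± 0.23 at 28 days and -0.19 ± 0.23 at 90 days (95% interval -0.68 to 0.29; adjusted p = 0.831). The peroxisomal thiolase Acaa1b changed by 0.00 ± 0.27 at 28 days and -0.43 ± 0.27 at 90 days, and by 0.31 ± 0.16 and -0.24 ± 0.16 without the 2 arrays that stand apart (adjusted p = 0.973 and 0.999). PB 28d mouse 5 read 12.39 for it, against 13.77 for the next lowest liver of that group. Changes of Pex11a, which promotes peroxisome division, were -0.13 ± 0.14 and -0.24 ± 0.14.

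Crot, which makes carnitine esters of the medium chains leaving the peroxisome, had the largest 28-day change of the peroxisomal genes. It read 13.11, 12.40, 12.35, 12.67 and 12.69 in CMC 28d and 12.76, 12.81, 12.62, 12.92 and 13.01 in PB 28d. The 90-day levels were 12.73, 12.59, 12.32, 12.40 and 12.32 in CMC and 12.32, 11.87, 12.33, 12.62 and 12.08 in PB. The groups overlapped at both durations, and the change was 0.18 ± 0.15 at 28 days and -0.23 ± 0.15 at 90 days (adjusted p = 0.816).

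Acot4, a thioesterase active on dicarboxylic acyl-CoA, had the smallest p of the set at 90 days and is named for that, after its values were seen. It read 6.64, 6.44, 6.76, 6.18 and 6.26 in CMC 90d and 5.99, 5.41, 6.21, 6.26 and 5.76 in PB 90d. The CMC livers of 28 days read 6.40, 6.25, 6.23, 6.21 and 5.85 and those of PB 6.05, 6.10, 5.74, 6.56 and 6.19. The 90-day ranges overlapped between 6.18 and 6.26. Its change was -0.53 ± 0.17 at 90 days (95% interval -0.89 to -0.16; unadjusted p = 0.00663, adjusted p = 0.816) and -0.06 ± 0.17 at 28 days. With the first component as a covariate the change was -0.61 ± 0.16 and the adjusted p 0.299, the lowest of any member at 90 days under the settings tried. Of the remaining peroxisomal genes Acot3, Acot8, Decr2 and Eci2, only Acot8 was higher in PB at 90 days, by 0.10 ± 0.16.

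The microsomal gene Cyp4a14, a fatty acid omega-hydroxylase that PPAR alpha agonists induce strongly in rodent liver, varied most of all. Its log2 intensity was 9.55, 11.54, 5.97, 11.63 and 6.77 in CMC 28d and 9.55, 5.95, 9.20, 10.69 and 8.27 in PB 28d. After 90 days it was 5.80, 10.85, 8.36, 7.35 and 5.89 in CMC and 8.14, 5.61, 6.15, 7.10 and 8.77 in PB. Both vehicle groups held livers near 6 and livers near 11, so mice on the same treatment differed by far more than the treatments did. The pooled SD within groups was 2.01. The change was -0.36 ± 1.14 at 28 days (95% interval -2.73 to 2.02; adjusted p = 1) and -0.50 ± 1.14 at 90 days (-2.87 to 1.88; adjusted p = 0.9). Without the 2 arrays that stand apart it was -0.24 ± 1.23 at each duration. A change of 1 log2 unit in either direction lies inside both intervals and was not detectable for this gene with 5 mice a group.

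In the cytosol, Acot1 hydrolyses long-chain acyl-CoA and Fabp1 carries fatty acids through the hepatocyte. Acot1 read 8.72, 8.22, 7.79, 8.67 and 6.06 in CMC 28d and 7.79, 7.82, 7.68, 8.69 and 8.01 in PB 28d. At 90 days it read 9.26, 8.34, 7.58, 7.32 and 8.17 in CMC and 7.57, 6.65, 7.00, 7.46 and 7.72 in PB. In 3 of the 5 CMC 90d livers it was above the whole PB 90d group. The change was 0.11 ± 0.42 at 28 days and -0.85 ± 0.42 at 90 days (95% interval -1.73 to 0.03; adjusted p = 0.816), the largest change of the set at 90 days.

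Fabp1, whose start region is shown above, was the steadiest member, with a pooled SD of 0.08. It read 14.88, 14.88, 14.87, 14.82 and 14.58 in CMC 28d and 14.78, 14.80, 14.79, 14.83 and 14.88 in PB 28d. The livers of 90 days read 14.83, 14.82, 14.80, 14.90 and 14.88 in CMC and 14.83, 14.78, 14.93, 14.79 and 14.79 in PB. These lie near the top of the array's scale, where differences are compressed. The change was 0.01 ± 0.06 and -0.03 ± 0.06 (95% interval at 90 days -0.15 to 0.10).

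Angptl4, a secreted inhibitor of lipoprotein lipase, was the member with an unadjusted p under 0.05 at 28 days. It read 9.91, 8.52, 9.26, 10.89 and 8.84 in CMC 28d and 9.57, 10.25, 10.41, 10.88 and 10.02 in PB 28d. The CMC livers spanned the whole PB range, and 3 of the 5 lay below it. At 90 days the CMC livers read 9.46, 10.31, 10.40, 9.34 and 9.63 and the PB livers 9.93, 9.49, 9.70, 10.16 and 9.86. The change was 0.74 ± 0.35 at 28 days (95% interval 0.01 to 1.48; unadjusted p = 0.0483, adjusted p = 1) and 0.00 ± 0.35 at 90 days.

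Vnn1, a pantetheinase on the cell surface, went the other way at 90 days. The CMC 90d livers read 6.71, 6.09, 5.60, 5.56 and 5.40 and the PB 90d livers 5.43, 4.45, 5.18, 4.95 and 5.37, with an overlap of 5.40 to 5.43. At 28 days CMC read 5.32, 5.70, 5.23, 6.86 and 6.46 and PB read 5.65, 6.08, 5.83, 7.96 and 5.43. The change was 0.28 ± 0.40 at 28 days and -0.80 ± 0.40 at 90 days (95% interval -1.64 to 0.04; adjusted p = 0.816). A dimmer Vnn1 probe set, above the 25th percentile on 7 arrays, gave -0.32 at 90 days. The hepatokine Fgf21 stayed dim, at 5.95, 5.45, 5.74, 6.02 and 5.55 in CMC 28d and 6.01, 5.53, 5.43, 5.92 and 5.62 in PB 28d. At 90 days it read 5.86, 5.87, 6.31, 4.98 and 5.37 in CMC and 5.08, 5.74, 5.66, 6.12 and 5.57 in PB, and its change was -0.05 ± 0.22 (95% interval -0.50 to 0.40). Creb3l3, a liver transcription factor that acts with PPAR alpha on Fgf21, changed by -0.34 ± 0.16 at 90 days (adjusted p = 0.816).

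**Figure D3:**
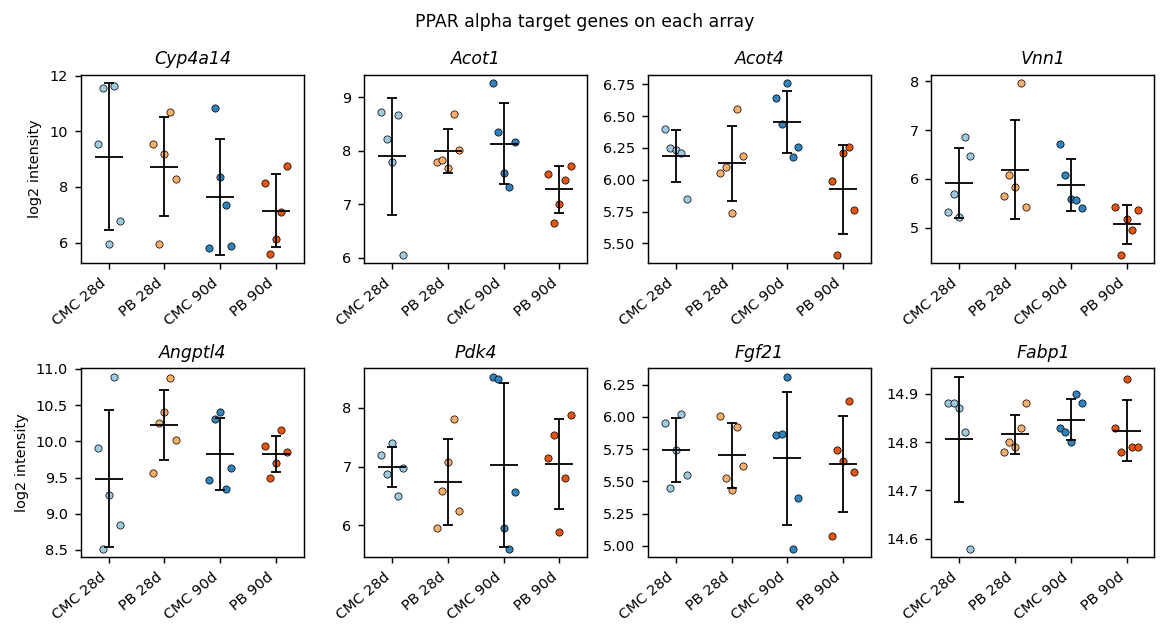
Log2 intensity of 8 PPAR alpha target genes on each array in the 4 groups, with points for mice, a long bar for the mean and error bars for the SD (n = 5). Cyp4a14 spans 5.61 (in PB 90d) to 11.63 (in CMC 28d), with 5.97 to 11.63 in CMC 28d alone, whereas Fabp1 stays between 14.58 and 14.93.

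The difference between the PB effects at the 2 durations was not called for any member. The 90-day effect was lower than the 28-day effect in 31 of 34 members, with a median difference of -0.26 against 0.01 over all genes. It was -1.07 ± 0.57 for Vnn1, -0.96 ± 0.60 for Acot1 and -0.47 ± 0.25 for Acot4 (adjusted p = 1 for each), and 0 members had an unadjusted p under 0.05 (background 0.928% higher and 0.448% lower). Without the 2 arrays that stand apart 8 members did, all lower (background 1.3%). Without PB 28d mouse 5 alone 10 did, and with array weights 8, counts that have no share over all genes beside them. For Hsd17b4, Acaa2 and the other genes that separated the groups at 90 days, a difference from the 28-day effect is therefore not shown.

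The vehicle livers also differed in direction between the durations. Between CMC 28d and CMC 90d, 27 of 34 members were higher at 90 days and 7 lower, with a median of 0.21 against -0.03 over all genes, of which 54.2% were lower. By compartment 15 of 17 mitochondrial genes (median 0.20) and 8 of 10 peroxisomal genes (median 0.25) were higher. The limma changes were 0.61 ± 0.27 for Acaa1b, 0.63 ± 0.32 for Cpt2, 0.40 ± 0.19 for Acaa2 and 0.39 ± 0.19 for Acadvl (adjusted p = 0.636 for each). Cyp4a14 went the opposite way by -1.44 ± 1.14. Only 3 members had an unadjusted p under 0.05 (background 2.03% higher and 3.66% lower), namely Acaa1b, Acaa2 and Acadvl, all higher. That count ranged from 0, without CMC 28d mouse 1 or 3 or CMC 90d mouse 1 or 5, to 7, without CMC 28d mouse 2 or PB 28d mouse 5. With array weights 8 were higher and 1 lower. The counts under these other settings have no share over all genes to be read against. Centred on the 75th percentile, where the all-gene median was -0.15 and 68.6% of all genes were lower, the split was 21 higher and 13 lower.

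CMC 90d held the highest group mean for 22 of 34 members (64.7%, against 31% of all genes), and PB 90d the lowest for 14 (41.2%, against 13.2%). The median member, centred on its own mean of the 4 groups, stood at -0.04 in CMC 28d, -0.04 in PB 28d, 0.13 in CMC 90d and -0.06 in PB 90d. Single livers overlapped between the groups. The median deviation of the members from their means over the 20 arrays ran from 0.01 to 0.27 in the CMC 90d livers and from -0.24 to 0.02 in the PB 90d livers. It reached 0.22 in PB 28d mouse 4 and 0.11 in CMC 28d mice 2 and 4. This order of the groups was not tested. The comparison of PB with CMC at 90 days and that of CMC at 90 with 28 days share the CMC 90d livers, so a high reading there enters both. In the second, the length of dosing, the age of the mice and any difference in handling cannot be told apart.

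**Figure D4:**
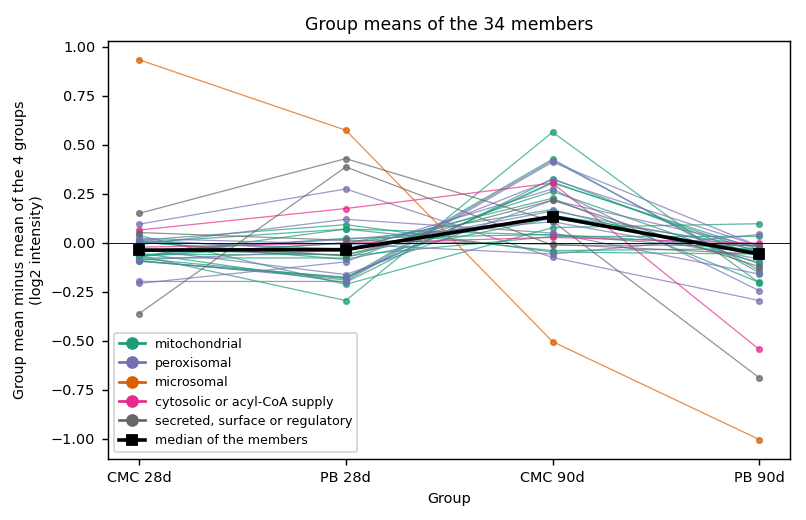
Group mean of each of the 34 members minus the mean of its 4 groups, in log2 units, with thin lines for genes coloured by compartment and squares for the median member. The median rises to 0.13 in CMC 90d from -0.04 in both 28-day groups and is -0.06 in PB 90d, and the single microsomal gene, Cyp4a14, runs downward over the 4 groups.

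The members did not all vary together among mice. Deviations from the group means were set against each other over the 20 arrays, and the 561 pairs of members had a median r of 0.26, with 412 above 0, 57 over 0.7 and 31 under -0.5. The largest pooled SDs within groups were those of Cyp4a14 (2.01), Pdk4 (0.90), Cpt1a (0.84) and Acot1 (0.73). Of 8 PPAR alpha targets set against Cyp4a14, Ehhadh had r = 0.75 (permutation p = 0.00122, adjusted p = 0.00976; Spearman rho = 0.75, permutation p = 0.00106, adjusted p = 0.00848). It kept r = 0.71 without CMC 28d mice 2 and 4, the livers farthest from the median of Cyp4a14, and r = 0.77 without the 2 arrays that stand apart. The mice with bright Cyp4a14 therefore also tended to have bright Ehhadh within their groups.

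Cpt1a against Cyp4a14 gave r = 0.47 (permutation p = 0.0453, adjusted p = 0.181; Spearman rho = 0.60, permutation p = 0.00995, adjusted p = 0.0398). The remaining r values ran from 0.13 for Pdk4 and 0.19 for Fgf21 to 0.42 for Acot1 and 0.44 for Angptl4, with adjusted permutation p from 0.243 to 0.616. By the size of r over 20 arrays, the members most like Cyp4a14 were Ehhadh (0.75), Eci2 (0.67), Acot2 (0.62), Acadl (0.56) and Acot3 (0.53), of which all but Ehhadh were read off without a test.

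Several oxidation enzymes followed the main axis of variation between the livers, as did a large share of all genes. Against the first component, computed without the 34 genes, r was over 0.7 for 8 members (23.5%) and for 21.4% of the 16054 genes tested. It was 0.94 for Cpt1a (permutation p = 4e-05, adjusted over all genes tested 0.000313; Spearman rho = 0.82, permutation p = 0.00021), 0.93 for Cpt2, 0.92 for Acadvl, 0.91 for Acaa2 and Hsd17b4, 0.90 for Acaa1b and 0.88 for Hadha. Over these 7 genes the permutation p adjusted over all genes ran from 0.000313 to 0.00241 and rho from 0.77 to 0.91. Their other probe sets gave r of 0.84 and 0.36 for Acaa2, 0.94 and 0.92 for Cpt1a, 0.88 for Cpt2 and 0.93 for Hsd17b4. Without PB 28d mouse 5 and PB 90d mouse 3, r was still 0.84 for Cpt1a, 0.77 for Cpt2, 0.84 for Acadvl, 0.77 for Acaa2, 0.74 for Hsd17b4 and 0.67 for both Acaa1b and Hadha. For Etfdh r was 0.77 with and 0.37 without those livers, for Creb3l3 0.70 and 0.46 and for Acadl 0.60 and 0.39, so these relations rest on them in large part. The component was named and tested after the data were seen.

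Other members ran against the same axis. Decr1, the mitochondrial dienoyl-CoA reductase, had r = -0.87 (permutation p = 3e-05, adjusted p = 0.000266; Spearman rho = -0.87, permutation p = 6e-05) and -0.86 without those 2 arrays. Slc25a20 had r = -0.82 and Acot8 -0.71, and these were -0.70 and -0.74 without them. The relation of Decr1 depended on the probe set, as its dimmer one gave r = -0.37. The other probe set of Slc25a20 gave -0.81. In all, 10 of 34 members (29.4%) had a positive relation at an adjusted permutation p under 0.05, against 26% of all genes tested, and 5 (14.7%) a negative one, against 31.1%. Of these 15, 7 positive and 3 negative were mitochondrial and 2 and 1 peroxisomal. The positive share lies near the background and the negative share below it, so these counts are not a result about the members. Cyp4a14 (0.29), Ehhadh (0.28), Pdk4 (0.28) and Angptl4 (-0.02) were outside both groups. Genes of the same pathway and compartment, such as Cpt2 and Slc25a20, thus stood at opposite ends.

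The mean level of the hepatocyte markers had r = 0.96 with the component (permutation p = 3e-05; Spearman rho = 0.89, permutation p = 0.00015), and 0.90 without the 2 arrays that stand apart. By group that level ran from 13.67 to 14.20 in CMC 28d, 12.94 to 14.03 in PB 28d, 14.06 to 14.20 in CMC 90d and 13.47 to 14.26 in PB 90d. The CMC 90d livers thus had the narrowest range, as they had for Acadvl and Acaa2. For other markers r with the component was -0.89 (pancreas acinar), -0.83 (lymphocyte), -0.77 (skeletal muscle), -0.72 (Kupffer cell), -0.51 (adipocyte) and -0.07 (neutrophil). It was 0.03 (stellate cell), 0.16 (endothelial), 0.31 (cholangiocyte) and 0.59 (erythroid, 1 gene). The acinar means were dim, at 5.01 to 5.78. The array's 25th percentile was highest on PB 28d mouse 5 and PB 90d mouse 3, at 4.26 and 4.12. In whole liver, fewer cells of a type and less RNA per cell cannot be told apart. RNA and array quality, and the part of the hepatocyte marker level in the members' values, were not tested. A fit with the component as a covariate is one way to set livers of like score side by side. In it 1 member was higher and 33 were lower in PB at 90 days, where 47.2% of all genes were lower. The median was -0.16, against -0.23 without the covariate. The changes were smaller than without the covariate. They were -0.17 ± 0.09 for Acadvl (-0.36 without it), -0.14 ± 0.09 for Acaa2 (-0.35) and -0.21 ± 0.11 for Hadha (-0.40). For Hsd17b4 the change was -0.29 ± 0.11 (-0.56) and for Cpt2 -0.42 ± 0.13 (-0.77). The adjusted p with the covariate ran from 0.554 to 0.929.

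**Figure D5:**
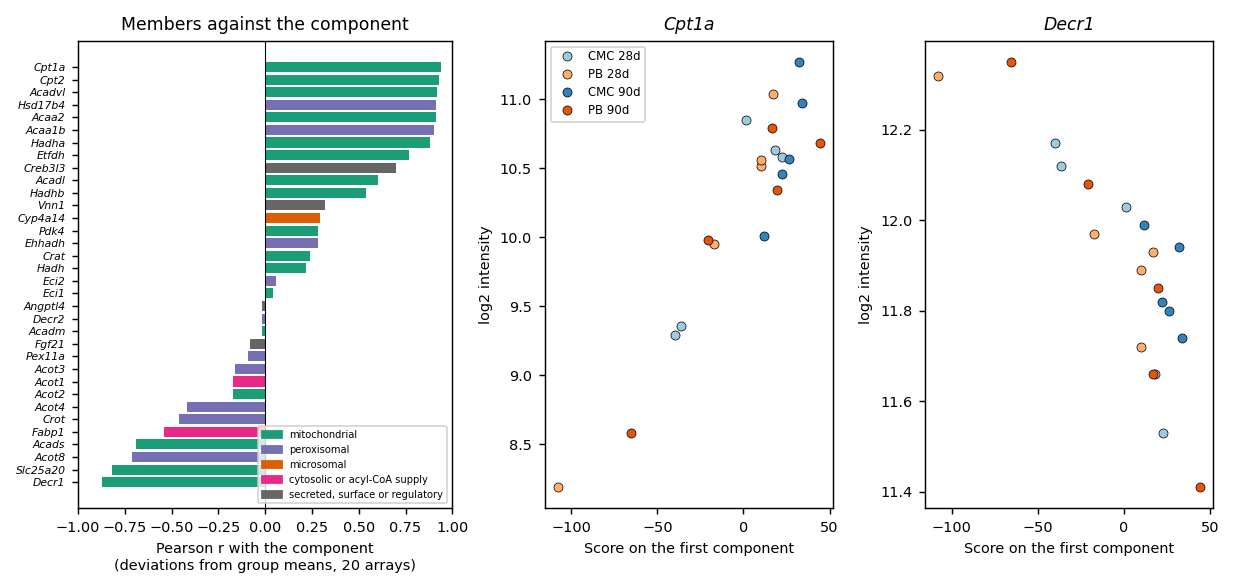
Pearson r of each member with the score of the arrays on the first component of the other genes (left; deviations from group means, 20 arrays, bars coloured by compartment), and log2 intensity of Cpt1a and Decr1 against that score (middle and right, points coloured by group). Cpt1a climbs with the score (r = 0.94) and Decr1 descends (r = -0.87), and PB 28d mouse 5 at -107.8 and PB 90d mouse 3 at -65.2 lie at the left edge.

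The rest of the pathway gave no calls. Of 13 listed genes for PPAR alpha, its partners and coregulators, 11 were tested and 0 called, with 8 lower at 28 days (median -0.14) and 9 lower at 90 days (median -0.36). Ppara itself changed by -0.45 ± 0.67 at 28 days and -0.68 ± 0.67 at 90 days (adjusted p = 1 and 0.816), with group means from 9.14 to 10.18. The smallest p in this list belonged to Rxrb, a partner receptor, at 28 days (0.21 ± 0.13) and to the coactivator Ppargc1b at 90 days (-1.05 ± 0.58, unadjusted p = 0.0853). Of 29 further PPAR alpha targets 23 were tested, with 14 lower at each duration and medians of -0.05 and -0.10. Slc27a1, a fatty acid transporter, had the smallest p at 28 days (0.26 ± 0.12) and Fabp4, the adipocyte fatty acid binding protein, at 90 days (0.96 ± 0.39, unadjusted p = 0.0225, adjusted p = 0.816).

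Of 32 further oxidation enzymes 30 were tested, and they were evenly split at 90 days, with 15 higher and 15 lower (median 0.00). At 28 days 19 were higher and 11 lower (median 0.03). The smallest p values were those of Eci3 at 28 days (0.40 ± 0.19) and Cyp4v3 at 90 days (-0.41 ± 0.24). The ketone body list, where 5 of 6 genes were tested, had 4 lower at each duration. Acat1, which joins acetyl-CoA units on the way to ketone bodies and also cleaves acetoacetyl-CoA, was lower by -0.22 ± 0.10 and -0.30 ± 0.10, and its mean PB effect of -0.26 ± 0.07 had an adjusted p of 0.367. No gene of these 4 lists was called in any comparison.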

How the data were processed

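Per the submitters' processing notes the authors made the deposited log2 intensities with RMA, which corrects background, equalises the arrays' distributions and summarises probes; for its version and the genome build, nothing was given in the sources used. These values were used as deposited. Of 45037 probe sets, 34945 had 1 gene symbol, 932 several and 9160 none, and 0 symbols changed against the reference annotation. Genes above the array's 25th percentile (3.96 to 4.26) on at least 5 arrays were kept, which left 16054 and removed 2139. All 4 groups were fitted together, each with its own mean, in limma 3.58.1 (R 4.3.3) with an intensity trend and 16 residual degrees of freedom, with Benjamini-Hochberg adjustment over all genes tested. Tests were two-sided. Correlations of deviations from group means were permuted within groups (100000 resamples; smallest p 1e-05). Code was tested on simulated data. Arrays give no counts, and their number limits the precision.

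Members and lists were chosen with earlier results of these data known. Named members are those called, those whose groups do not overlap, the largest change per compartment and duration, Cyp4a14, Ehhadh, Cpt1a, Pdk4 and Fgf21, and the extremes of spread; of other lists, called genes or the smallest p. Alternatives covered the filter, the choice of probe set, the variance prior, the samples fitted, array weights, normalization, a replicate block and each array left out. Removal of the 2 arrays that stand apart and the first component as a covariate were added after seeing the data. The labels name nothing that mice with the same replicate number share. Over 30 pairs of such arrays the deviations had a median r of -0.08 (range -0.69 to 0.61), and 9 pairs exceeded 0.1.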

Additional observations from a re-analysis of the deposited data

Results flagged for a closer look

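A stray array was looked for in 136 groups of 5 values (34 members in 4 groups), and chance flags about 1 in 20 such groups; 12 member levels were flagged, 5 of them on PB 28d mouse 5. That liver was low for Acaa2 (11.94, the next value 12.78), Acadvl (10.89, next 11.77), Hadha (8.70, next 9.47), Acaa1b (12.39, next 13.77) and Hsd17b4 (10.68, next 11.83), and its score on the first component was -107.8 with the next at -17.3. PB 90d mouse 3 was high for Acads (10.92, next 10.41), and PB 90d mouse 5 for Crat (8.27, next 7.91). PB 90d mouse 2 was low for Decr2 (9.56, next 10.10) and Eci2 (10.62, next 11.07). Among the vehicle livers, CMC 90d mouse 2 was low for Hadhb (11.48, next 11.76) and CMC 28d mouse 5 for Fabp1 (14.58, next 14.82). PB 28d mouse 4 was high for Vnn1 (7.96, next 6.08).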

How the results depend on the processing

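The count of called members was 0 in each of the 5 comparisons under every alternative run, and the lowest adjusted p of any member was 0.726 at 28 days, 0.299 at 90 days, 0.314 for the mean effect, 0.707 for the difference and 0.279 for CMC over time. Leaving out each array in turn, the median change of the members ranged from -0.08 to 0.10 at 28 days, -0.29 to -0.15 at 90 days, -0.17 to -0.06 for the mean effect, -0.36 to -0.18 for the difference and 0.13 to 0.24 for CMC over time. With a replicate block the medians were 0.00, -0.23, -0.12, -0.26 and 0.21 and 0 members were called, and the block changed no call. Of 2365 gene values under alternatives 2 moved by more than the spread between replicates: Acadl was 0.00 at 90 days and 0.07 for the mean effect with all probe sets averaged. A further 108 uncalled gene values changed sign. Dim and near-saturated probe sets limit how small a change can be seen.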
